A study of Homo sapiens with 8 samples.

Results

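The neurotrophins BDNF and NTF3, the neurotrophin receptors NGFR, NTRK2 and NTRK3, and the VPS10 domain receptors SORT1, SORL1 and SORCS1 are the 8 genes described here, taken by symbol from a deposited table of raw read counts for 67060 genes. All 8 were found in the table, and 7 had enough reads to be tested. The counts come from SH-SY5Y, an established human neuroblastoma cell line that the labels call a neuronal progenitor. In the treated group, called ERRg, the cells received an adenovirus for BioID (a biotin ligase used to label neighbouring proteins) joined to Flag-tagged ERRg, the orphan nuclear receptor encoded by ESRRG. In the control group, called GFP, they received an adenovirus for BioID joined to GFP and a nuclear localisation signal. Both groups therefore carry a virus and the ligase. Per the labels' protocols, 0.5 ul of virus was given at 80% confluence and RNA was taken after 48 h. There are 4 libraries per group. Whether the 4 stand for separate cultures is not in the labels. The p-values therefore cover the spread between these libraries only, which may be technical.

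Neurotrophins are secreted growth factors made as longer precursors. BDNF and NTF4 bind TrkB (NTRK2) and NTF3 binds mainly TrkC (NTRK3), both of them receptor tyrosine kinases that signal through adaptors to the RAS, phosphoinositide 3-kinase and phospholipase C pathways. The p75 receptor (NGFR) binds all neurotrophins and has no kinase of its own. Sortilin (SORT1) binds precursor neurotrophins together with p75, and its relatives SORLA (SORL1) and the SorCS proteins move receptors and cargo between the Golgi, endosomes and the cell surface. TrkB is a long-studied receptor of neuroblastoma.

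The libraries of the groups differed in composition. A GFP library held 27.7 to 35.5 M reads in genes and an ERRg library 21.02 to 23.0 M. The share of all reads that the counting assigned to no annotated feature was 20.9% ± 3.58 in the GFP libraries and 46.7% ± 1.31 in the ERRg libraries (SD, n = 4 each). How strand was treated is not given, so this class may also hold reads antisense to annotated genes. ESRRG was at 34.9 ± 2.34 counts per M reads (CPM) in GFP and at 808 ± 73.2 CPM in ERRg (SD, n = 4 per group), and the counts do not separate viral from cellular ESRRG. Sympathoadrenal markers gave a summed 880 to 994 CPM in GFP and 561 to 630 in ERRg (9 genes), with TH at 0 in every library. Of the Schwann cell markers, the defining genes SOX10, S100B, FOXD3 and CDH19 were under 1 CPM in every library, and the 7 together summed to 4.71 to 5.33 CPM in GFP and 3.45 to 4.55 in ERRg. The 6 leukocyte markers together stayed below 1 CPM.

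The promoters are shown because ERRg is a DNA-binding receptor. RefSeq promoter windows on GRCh38.p14, from 250 bases before to 50 after a transcript start, were matched for 7 of the 8 genes. NGFR, the gene with the largest change of the 8, had no window, so its promoter was not searched. The same holds for SORCS2, a family gene outside the 8. On both strands, TCAAGGTCA, the extended response element of ERR proteins, and its core AAGGTCA were in none of the 18 windows of the neurotrophin and receptor family. Of all 35116 windows, 0.353% held the former and 3.92% held the latter, and each match of the former is also a match of the latter. The shorter half-site AGGTCA, searched after the values were seen and contained in both other motifs, was in 1 of the 18 windows and in 13.8% of all windows. That match lay at chr1:109398149-109398154, starting at position -236 of the first SORT1 start. The SORT1 window is printed for this match, in capitals on the opposite strand as TGACCT, and the NTRK3 window because NTRK3 had the largest rise of the 8. Both are on the minus strand, 5′ to 3′, and end where the annotated gene begins, at chr1:109397952-109398168 and chr15:88256769-88256989.
SORT1: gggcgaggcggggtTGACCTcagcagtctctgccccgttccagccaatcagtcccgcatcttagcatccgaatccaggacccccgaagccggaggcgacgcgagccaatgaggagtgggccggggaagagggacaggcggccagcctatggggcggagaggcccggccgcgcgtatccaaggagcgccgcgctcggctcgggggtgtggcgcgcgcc
NTRK3: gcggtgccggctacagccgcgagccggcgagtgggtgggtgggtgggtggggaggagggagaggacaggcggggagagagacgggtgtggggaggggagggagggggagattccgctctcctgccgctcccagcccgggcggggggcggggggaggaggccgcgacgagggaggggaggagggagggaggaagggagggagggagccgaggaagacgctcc

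The 8 genes did not move as a group. NGFR fell most, SORL1, SORT1 and SORCS1 fell by less, NTRK3 and NTRK2 rose, BDNF did not pass the test and NTF3 had no reads. Of the 7 tested, 2 were higher and 4 lower in ERRg (edgeR quasi-likelihood test, Benjamini-Hochberg adjusted p under 0.05), with a median log2 fold change (ERRg over GFP) of -0.33. CPM values and tests use TMM factors, which align libraries by a trimmed mean of log ratios over genes, unless another scaling is named. Of all 21993 genes tested, 74.6% were called, 38.7% as higher and 35.9% as lower, with a median of 0.09. The 7 are all coding genes. Of 13433 coding genes tested, 79.5% were called, 28.9% as higher and 50.6% as lower, with a median of -0.30. The 6 called of 7 (85.7%), and the median of the 7, have to be read against these backgrounds. Groups did not overlap in 6 of the 7, and in 68.4% of all genes tested.

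**Figure D1:**
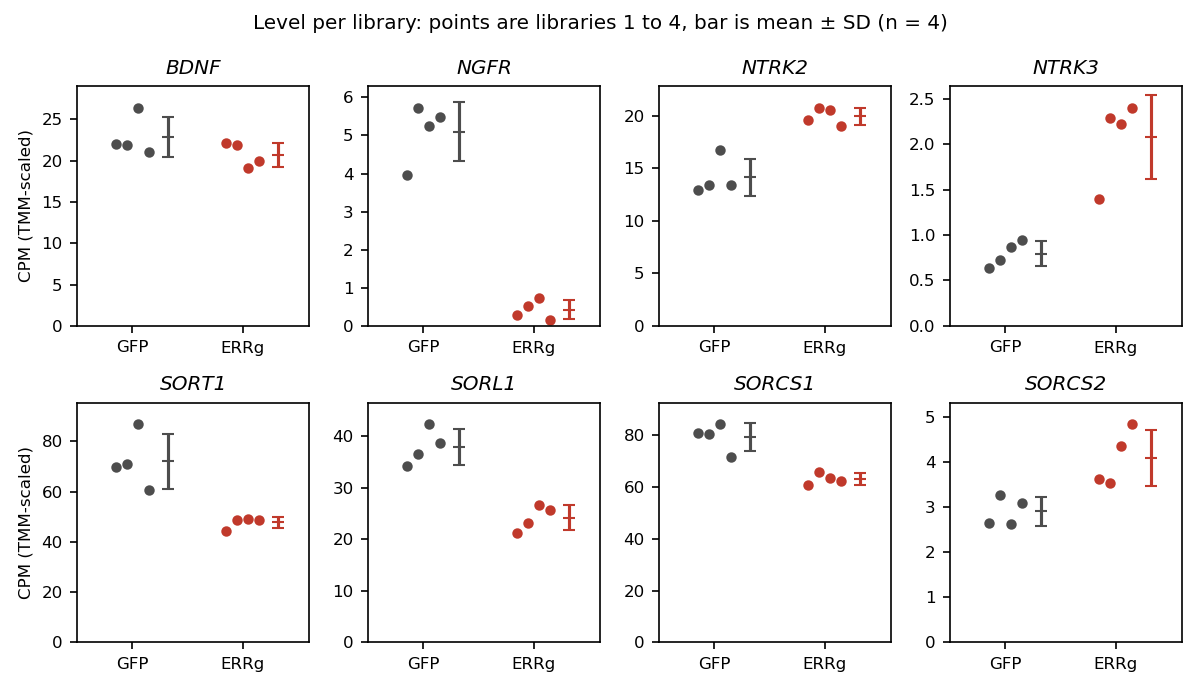
Level of 8 family genes in each library, in CPM scaled by TMM factors (y axes start at 0); points are libraries 1 to 4 of each group and the bar is the mean ± SD (n = 4). All 4 ERRg libraries lie below all 4 GFP libraries for NGFR, SORT1, SORL1 and SORCS1 and above them for NTRK2, NTRK3 and SORCS2, while the groups overlap for BDNF.

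Among the ligands, BDNF (ENSG00000176697.20, chromosome 11 from 27654893 to 27722058 on GRCh38, minus strand) was the only one of the 2 chosen with reads. BDNF supports the survival of neurons and synaptic plasticity through TrkB. It was at 22.0, 21.9, 26.4 and 21.1 CPM in GFP libraries 1 to 4 and at 22.1, 21.9, 19.1 and 19.9 CPM in ERRg libraries 1 to 4. The groups overlapped, with GFP library 3 the highest and ERRg library 3 the lowest. BDNF had a log2 fold change of -0.14 (SE 0.10, 95% interval -0.35 to 0.07, edgeR adjusted p = 0.219). Its direction turned with upper-quartile factors (0.17, edgeR adjusted p = 0.142), with coding genes alone (0.18, edgeR adjusted p = 0.117) and with library totals (0.26, edgeR adjusted p = 0.0288). BDNF was called lower (-0.53, edgeR adjusted p = 7.07e-07) with offsets, which take out of each library's counts the trend across coding genes with GC content, transcript length and gene span.

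BDNF-AS, the antisense RNA gene across from BDNF, rose where BDNF did not pass the test. It lies on the plus strand of chromosome 11 from 27506838 to 27698174, and its exons overlap those of BDNF over 701 bases. It was at 11.8, 7.35, 7.84 and 14.04 CPM in GFP libraries 1 to 4 and at 26.5, 26.03, 19.7 and 23.6 CPM in ERRg libraries 1 to 4, with no overlap. This is a rise of 1.23 on the log2 scale (SE 0.16, edgeR adjusted p = 8.46e-07). Of all genes tested 38.7% were called higher, and of coding genes 28.9%. Higher calls were thus more frequent among genes that are not coding, such as BDNF-AS, and its call has to be read against that background. The offsets were fitted to coding genes alone and give no value for BDNF-AS. The strand setting of the counting is not given in the sources used here, and whether reads of one strand were counted for the other in this pair was not tested. The other antisense genes looked up, NTRK3-AS1, NGFR-AS1, SORL1-AS1 and SORCS3-AS1, had 5 reads or fewer per library and were not tested.

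NTF3 (ENSG00000185652.12, chromosome 12 from 5432112 to 5521536), the neurotrophin of proprioceptive and early sympathetic neurons, had 0 reads in all 8 libraries. A count of 0 allows up to 3 reads, which is 0.103 to 0.123 CPM per library and covers counting error only. TUBB and FLOT1, which most cells use, are also at 0 in all 8 libraries, so NTF3 can only be said to be listed at 0. NTF4, the other TrkB ligand, had 1 to 8 reads per library and was not tested.

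The p75 receptor gene NGFR (ENSG00000064300.9, chromosome 17 from 49495293 to 49515017, plus strand) had the largest fall of the 8. It was at 3.96, 5.73, 5.25 and 5.47 CPM in GFP libraries 1 to 4, from 111 to 166 reads. In ERRg libraries 1 to 4 it was at 0.288, 0.526, 0.739 and 0.163 CPM, from 4 to 18 reads. The highest ERRg library thus lay well below the lowest GFP library. The mean went from 5.10 ± 0.786 to 0.429 ± 0.256 CPM (SD, n = 4 each), a log2 fold change of -3.55 (SE 0.27, edgeR adjusted p = 3.90e-10) and an 11.7-fold lower level. NGFR and 6 other genes, 0.0318% of those tested, were called lower with a log2 fold change at or below this value. NGFR was called lower in 23 of 23 alternatives with no covariate, from -3.94 without ERRg library 3 to -2.39 with an offset for GC content.

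NGFR is also expressed by Schwann cells, fibroblasts and the mesenchymal state of neuroblastoma, so those markers are given beside it. Schwann cell markers were near 0 as given above. The 7 fibroblast markers summed to 495 to 544 CPM in GFP and 217 to 265 in ERRg, with 6 lower and LUM higher. The 9 mesenchymal-state markers summed to 7067 to 8091 CPM in GFP and 3731 to 4072 in ERRg, with 6 lower and 0 higher. Among all coding genes tested, 50.6% were called lower and 28.9% higher, with a median log2 fold change of -0.30. The median was -0.29 for the mesenchymal-state markers, near that of coding genes, and -1.32 for the fibroblast markers. For the sympathoadrenal markers it was -0.86, with 6 of 8 tested called lower. The part of these cells or states in the fall of NGFR was not tested. In bulk RNA, fewer cells of a type and less RNA per cell cannot be told apart.

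The Trk receptor genes among the 8 moved the other way. NTRK3, which encodes TrkC (ENSG00000140538.16, chromosome 15 from 87859751 to 88256768, minus strand), was at 0.642, 0.724, 0.864 and 0.947 CPM in GFP libraries 1 to 4. It was at 1.40, 2.29, 2.22 and 2.40 CPM in ERRg libraries 1 to 4. All ERRg libraries were above all GFP libraries, with ERRg library 1 set below the other 3. These values rest on 18 to 24 reads in GFP and 34 to 61 in ERRg. NTRK3 rose 2.62-fold (log2 fold change 1.39, SE 0.24, edgeR adjusted p = 2.43e-05), and with all 3 offsets the value was 0.75 (edgeR adjusted p = 0.00713).

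NTRK2, which encodes TrkB (ENSG00000148053.17, chromosome 9 from 84668551 to 85027070, plus strand), was at 13.0, 13.4, 16.8 and 13.4 CPM in GFP libraries 1 to 4. In ERRg libraries 1 to 4 it was at 19.5, 20.7, 20.5 and 19.03 CPM. The ERRg libraries lay close together and above the highest GFP library, which was library 3. NTRK2 rose 1.41-fold (log2 fold change 0.50, SE 0.11, edgeR adjusted p = 2.67e-04). The call ended with all 3 offsets (0.10, edgeR adjusted p = 0.236), though not with the offset for GC content alone (0.37, edgeR adjusted p = 2.59e-04). Gene counts do not separate the full-length kinase receptor from the truncated forms that NTRK2 also makes.

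The sortilin family receptors mostly fell, by less than NGFR. SORL1 (ENSG00000137642.13, chromosome 11 from 121452203 to 121633693, plus strand), whose product SORLA sorts the amyloid precursor protein, was at 34.1, 36.5, 42.2 and 38.6 CPM in GFP libraries 1 to 4. It was at 21.1, 23.2, 26.6 and 25.7 CPM in ERRg libraries 1 to 4, with no overlap. SORL1 fell by 0.65 on the log2 scale (SE 0.10, edgeR adjusted p = 8.19e-06), and the fall was similar with the offsets (-0.71) and smaller with library totals (-0.24, edgeR adjusted p = 0.0351).

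SORT1 (ENSG00000134243.12, chromosome 1 from 109309568 to 109397951, minus strand), the sortilin gene, was at 69.6, 71.1, 86.8 and 60.6 CPM in GFP libraries 1 to 4. In ERRg libraries 1 to 4 it was at 44.2, 48.9, 49.1 and 48.8 CPM. GFP spread widely, with library 3 highest, and still did not overlap ERRg. SORT1 fell by 0.59 on the log2 scale (SE 0.10, edgeR adjusted p = 2.73e-05), a call that ended with library totals (-0.19, edgeR adjusted p = 0.0971) and held with the offsets (-0.57).

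SORCS1 (ENSG00000108018.15, chromosome 10 from 106573663 to 107164534, minus strand), a sorting receptor of neurons, was at 80.8, 80.7, 84.3 and 71.7 CPM in GFP libraries 1 to 4. It was at 60.8, 66.03, 63.4 and 62.4 CPM in ERRg libraries 1 to 4. The groups did not overlap, but the gap was small. SORCS1 fell by 0.33 on the log2 scale (SE 0.09, edgeR adjusted p = 0.00176). That call ended with upper-quartile factors (-0.03, edgeR adjusted p = 0.787) and when coding genes alone were tested (-0.02, edgeR adjusted p = 0.864), and with library totals the value was 0.07 (edgeR adjusted p = 0.469).

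SORCS2, which pairs with p75 as a receptor for precursor neurotrophins, rose too and is not among the 8. It was at 2.64, 3.28, 2.63 and 3.09 CPM in GFP libraries 1 to 4 and at 3.62, 3.53, 4.35 and 4.84 CPM in ERRg libraries 1 to 4. The groups did not overlap (log2 fold change 0.49, SE 0.16, edgeR adjusted p = 0.0101). Its call ended without GFP library 1 (0.36, edgeR adjusted p = 0.0830), GFP library 3 (0.35, 0.0868) or ERRg library 4 (0.38, 0.0608), and with the offsets it was 1.22. SORCS3 had 1 to 7 reads per library and was not tested.

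The size of the smaller changes depended on how libraries were scaled. The median over all genes moved from 0.09 (log2) with TMM factors to 0.40 with upper-quartile factors and to 0.50 with library totals. BDNF and SORCS1 changed direction between these scalings, while SORT1, SORL1, NTRK2 and SORCS2 kept theirs. NGFR fell, and NTRK3 rose, under each of these scalings and with the offsets. Of the 7, upper-quartile factors gave 2 higher and 3 lower, where 50.2% of all genes tested were called higher and 27.5% lower (40.1% and 39.7% of coding genes). Library totals gave 3 and 2, where 53.6% of all genes were called higher and 24.5% lower (43.6% and 35.8% of coding genes). The offsets, fitted to coding genes alone, gave 1 and 5, where 30.8% were called higher and 41.3% lower. Fold changes also followed GC content across coding genes, with a median of 0.54 in the fifth of lowest GC content and -1.23 in the fifth of highest. NGFR, at 62.8% GC in its longest transcript, lies in the latter, and so does SORCS2 (61.6%), which was called higher. The other tested genes of the 8 had 40.5% to 47.7% GC. When the share of reads assigned to no feature entered the edgeR model as a covariate, 0 of the 7 were called (NGFR -2.32, adjusted p = 0.898). In that fit 1 of them, NGFR, had an unadjusted p under 0.05. The share does not overlap between the groups, so the group and the share cannot be told apart in this design.

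**Figure D2:**
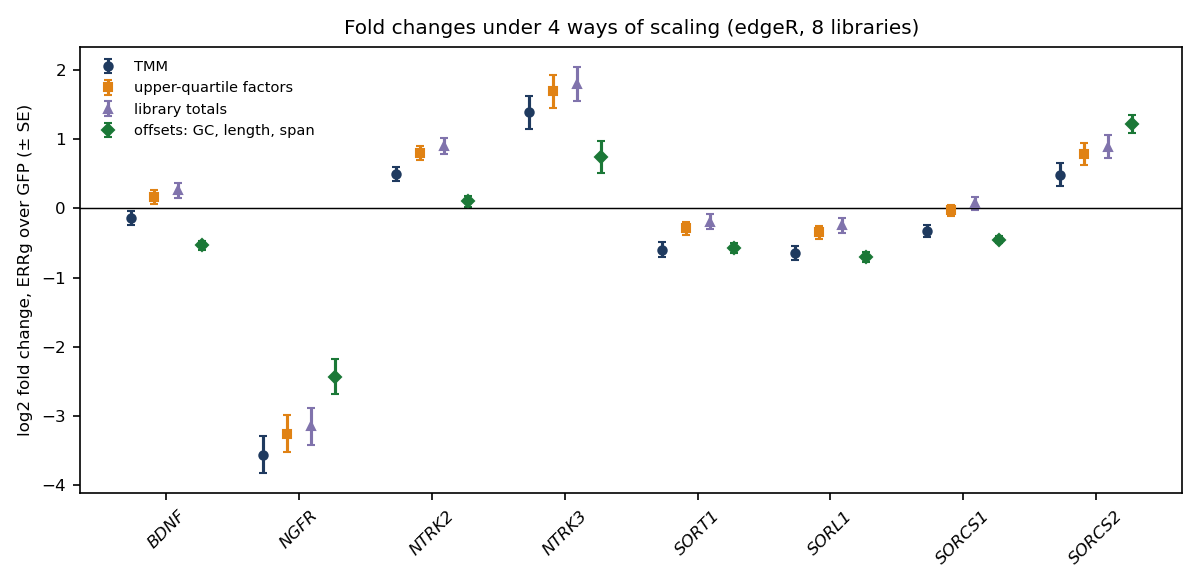
Log2 fold change (ERRg over GFP, ± SE, edgeR, 8 libraries) of 8 family genes under TMM factors, upper-quartile factors, library totals, and offsets for GC content, transcript length and gene span. NGFR stays below 0 and NTRK3 above 0 under all 4, whereas BDNF and SORCS1 cross 0.

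Ratios of reads within a library do not depend on scaling, and were computed for 8 pairs chosen after the values were seen, so they carry no test. The NGFR to NTRK2 ratio was 0.306 to 0.428 in GFP and 0.00855 to 0.0361 in ERRg, and the NGFR to NTRK3 ratio 5.78 to 7.90 in GFP and 0.0678 to 0.333 in ERRg. NGFR was thus lower relative to both of these Trk receptors in every ERRg library, and went from more reads than NTRK3 to fewer. The NTRK3 to NTRK2 ratio was 0.0496 to 0.0708 in GFP and 0.0716 to 0.126 in ERRg, a separation with a small gap. BDNF had 1.58 to 1.70 reads per NTRK2 read in GFP and 0.934 to 1.13 in ERRg, so the ligand gene lost ground to its receptor gene in every ERRg library. For SORL1 to SORT1 the ranges overlapped (0.487 to 0.637 in GFP and 0.474 to 0.541 in ERRg). SORCS1 to SORT1 was 0.971 to 1.18 in GFP and 1.28 to 1.37 in ERRg, and SORCS2 to SORT1 0.0303 to 0.0510 and 0.0723 to 0.0991. In reads, both SorCS genes gained on SORT1, while SORL1 and SORT1 kept their proportion within the spread of libraries. These ratios are not free of trends with GC content, transcript length or gene span. With the offsets for these, SORCS1 was at -0.45 (SE 0.05) and SORT1 at -0.57 (SE 0.07), closer together than with TMM factors (-0.33 and -0.59). NGFR was at -2.43 and NTRK2 at 0.10 with the offsets, against -3.55 and 0.50 with TMM factors.

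Per kilobase of annotated exons, the order of levels showed which of the genes described here were highest in these cells. In GFP the highest were SORCS1 (7.97 ± 0.543 CPM per kilobase) and SORT1 (7.86 ± 1.19), which did not differ beyond their spread (SD, n = 4). BDNF (2.95 ± 0.311), SORL1 (1.95 ± 0.178), NGFR (1.23 ± 0.190) and NTRK2 (0.693 ± 0.0872) followed, each clear of its neighbours. SORCS2 (0.460 ± 0.0517), NTF4 (0.157 ± 0.0720), NTRK3 (0.0297 ± 0.00511) and SORCS3 (0.0221 ± 0.00995) were lowest, the last pair within their spread. In ERRg, NGFR moved from place 5 to place 7, behind NTRK2 (0.979 ± 0.0392) and SORCS2 (0.647 ± 0.0984). There NGFR (0.103 ± 0.0616), NTF4 (0.0890 ± 0.0738) and NTRK3 (0.0776 ± 0.0171) did not differ beyond their spread (SD, n = 4). These values use the union of annotated exons, and the cells may use shorter transcripts. For NTRK2 that union is 20363 bases and the longest transcript 8633, for NGFR 4150 and 3417. The order of NGFR and NTRK2 in GFP depends on this choice and would reverse with the longest transcript.

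**Figure D3:**
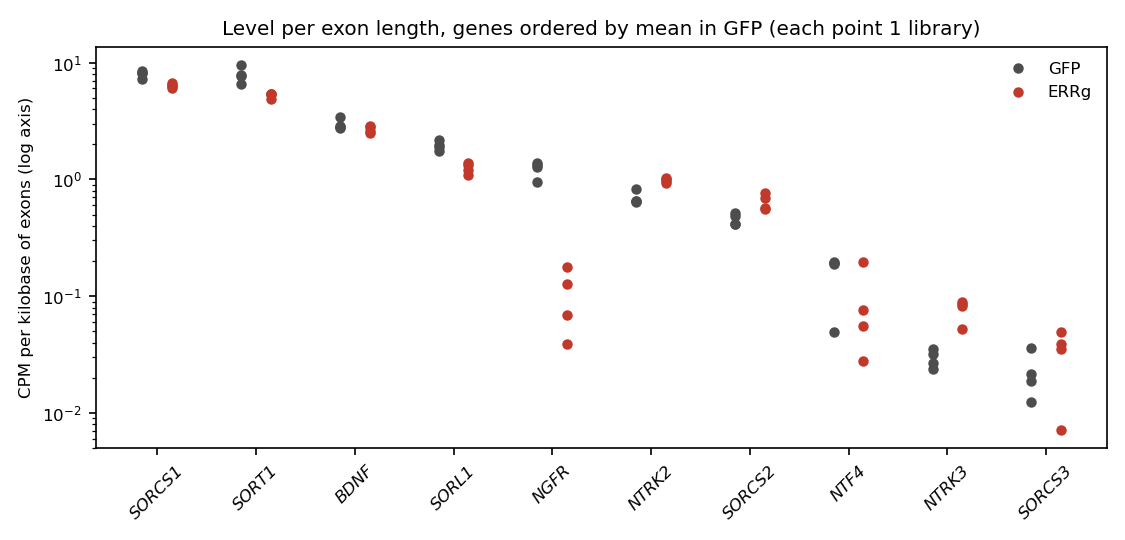
CPM per kilobase of annotated exons for 10 family genes with reads, ordered by mean in GFP (log axis, each point 1 library). By this length, NGFR drops below NTRK2 and SORCS2 in ERRg, and NTRK3 stays near the bottom in both groups. The order of NGFR and NTRK2 in GFP depends on the length used.

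The genes whose profiles over the 8 libraries were nearest to those of NGFR and NTRK3, the called genes with the largest fall and rise, were taken from 12502 coding genes by Euclidean distance of centred log2(CPM + 0.5) values. Nearest to NGFR were FAIM2 (distance 0.580), the plasminogen activator PLAT (0.716), the growth factor binding protein IGFBP3 (0.771), the neuropeptide NPY (0.796) and the linker histone H1-10 (0.841). The added 0.5 CPM shrinks the fall of NGFR, and their own log2 fold changes were smaller, from -2.62 to -2.44. Nearest to NTRK3 were MYH3 (0.457), ZNF460 (0.469), TYW1B (0.488), GPM6A (0.489) and NOPCHAP1 (0.490), with log2 fold changes of 0.92 to 1.35. With 2 groups of libraries, these distances mainly reflect the size of the difference between groups.

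Genes that act with the 8 were described from 6 lists and 3 other family genes, 132 genes in all. Of 120 tested, 30 were higher and 74 lower (median -0.57). Among all 13433 coding genes tested 79.5% were called, 28.9% as higher and 50.6% as lower (median -0.30). These values are the background for the TMM counts of each list below. The split of the 120 was 39 higher against 60 lower under upper-quartile factors, where 40.1% of coding genes were higher and 39.7% lower. It was 43 against 55 under library totals (43.6% and 35.8% of coding genes), and 36 against 56 with the offsets (median -0.16, against -0.07 over coding genes, of which 30.8% were higher and 41.3% lower).

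Of 32 Trk adaptor and signalling genes, 11 were higher and 18 lower (median -0.36), and 13 and 11 with library totals. The 4 with the smallest p were all lower. The adaptor SHC1, which links Trk receptors to RAS, fell from 779 ± 64.6 to 288 ± 31.3 CPM, and the endosomal adaptor GIPC1 from 156 ± 21.5 to 49.5 ± 7.47 CPM. The adaptor genes SH2B2 and SHC2 fell by 1.74 and 1.57 on the log2 scale, and SHC2 did not pass the test with the offset for GC content (-0.18, edgeR adjusted p = 0.214).

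Of 27 tested genes for p75 adaptors, cleavage and co-receptors, 6 were higher and 17 lower (median -0.83), and 6 and 14 with the offsets (median -0.23). IRAK1, a kinase of the p75 and interleukin-1 pathways, fell from 343 ± 46.2 to 104 ± 20.5 CPM. ARHGDIA, an inhibitor of small GTPases that binds p75, fell from 517 ± 62.7 to 170 ± 31.1 CPM. The transcription factor SALL2 fell by 1.63 and the gamma-secretase subunit APH1A by 1.59 on the log2 scale.

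All 10 tested genes for proneurotrophin processing and release were called with TMM factors, 4 higher and 6 lower (median -0.38) against 79.5% of coding genes called. The split was again 4 and 6 with the offsets. Upper-quartile factors gave 4 higher and 5 lower, and library totals 4 and 4. The tissue plasminogen activator PLAT, whose plasmin cleaves precursor BDNF, went from 342 ± 40.1 down to 56.6 ± 6.34 CPM (a log2 fold change of -2.59, SE 0.11). The matrix protease MMP3 fell by 1.19 on the log2 scale. The matrix protease MMP2 fell from 492 ± 25.4 to 190 ± 20.9 CPM, and FURIN, the Golgi protease that cuts precursor neurotrophins, from 159 ± 9.52 to 50.6 ± 10.1 CPM (SD, n = 4 each). PCSK1, a convertase of the regulated secretory pathway, had the largest rise of the list, a value singled out after it was seen (0.379 ± 0.217 to 2.34 ± 0.253 CPM, log2 fold change 2.65).

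Of 20 genes for VPS10 receptor trafficking, 5 were higher and 11 lower (median -0.34), and 9 and 8 with library totals. The clathrin adaptor subunits AP1M1 and AP2M1 fell by 1.61 and 1.03, the Golgi adaptor GGA3, which binds sortilin's tail, by 0.91, and the mannose 6-phosphate receptor M6PR by 0.76 on the log2 scale. With the offsets the calls of GGA3 and AP2M1 ended (-0.09 and -0.05). Of 15 tested genes for other ligands and cargo of sortilin and SORLA, 2 were higher and 10 lower (median -0.47), and 4 and 7 with the offsets. Progranulin (GRN), a sortilin ligand, fell from 105 ± 7.38 to 30.9 ± 6.69 CPM, and neurotensin (NTS), a peptide that sortilin also binds, from 135 ± 12.8 to 63.8 ± 4.16 CPM. APLP1 fell by 1.65 and prosaposin (PSAP) by 0.98 on the log2 scale.

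Of 16 tested genes that neurotrophin signalling is known to induce, 1 was higher and 13 lower (median -0.92), where 28.9% of coding genes were higher and 50.6% lower. The split was 3 against 10 under both upper-quartile factors and library totals, and 6 against 4 with the offsets (median -0.01). The peptide NPY fell from 65.6 ± 5.89 to 11.8 ± 1.78 CPM and stayed lower with the offsets. The immediate early genes IER2 and EGR1 fell by 1.83 and 1.73 and the phosphatase gene DUSP1 by 0.88 on the log2 scale. With the offsets DUSP1 was at 0.08 (edgeR adjusted p = 0.186). Many other signals induce these genes.

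**Figure D4:**
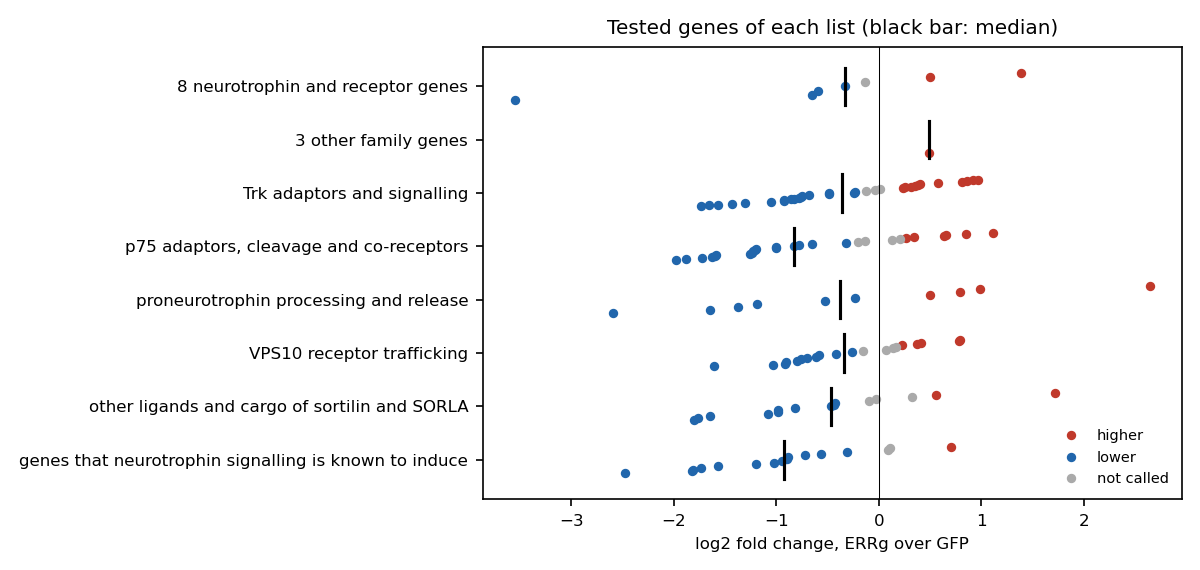
Log2 fold change (ERRg over GFP) of each tested gene in the 8 genes, 3 other family genes and 6 lists of pathway genes, coloured by the edgeR call at an adjusted p under 0.05, with the median as a black bar. Medians of the 6 pathway lists lie between -0.92 and -0.34, and NGFR is the lowest point of all.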

How the data were processed

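The submitters' processing notes name build GRCh38, the trimmer Trim Galore 0.6.6, the aligner STAR 2.7.8a, the counter HTSeq 0.11.3, CASAVA and DESeq2. They give neither the release of the annotation nor how HTSeq treated strand. The table that the authors deposited holds raw counts, not normalised. The 5 summary lines that name no gene (44.9% ± 2.48 of reads in GFP, 58.6% ± 0.551 in ERRg) entered neither library sizes nor tests. Symbols came from a name table, and positions, exon lengths and GC content of the longest transcript from GENCODE release 29 on GRCh38.

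All genes were fitted with edgeR 4.0.16 (quasi-likelihood test, TMM factors, filterByExpr, two-sided, Benjamini-Hochberg adjustment over 21993 genes, call at an adjusted p under 0.05) under R 4.3.3, the group being the one term. CPM uses TMM effective library sizes. Fits were also run on simulated counts in which few genes changed and no GC trend or shift in composition was built in. That run therefore does not cover the broad changes seen in these libraries. Alternatives used DESeq2 1.42.0, limma 3.58.1 voom, other factors, filters, offsets and left-out libraries. The 8 genes, the lists and the rule for named genes (the 8, 3 other family genes, antisense genes, and the 4 smallest p per list) were chosen with earlier results of these data known. Some genes of the family and lists are not reported here, and counts, medians and marker sums leave them out. Pairs of libraries within a group differed beyond sampling noise (mean chi-square per gene 2.72 to 35.1), and none was a duplicate. The closest pairs were ERRg 1 with 2 (2.72) and ERRg 3 with 4 (4.54), so these may not be equally independent.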

Additional observations from a re-analysis of the deposited data

Results flagged for a closer look

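In 3 of 16 groups of 4 libraries tested, 1 library lay apart from the other 3 by Dixon's criterion at the 95% level, where chance gives about 1 in 20 groups. NTRK2 was at 16.8 CPM in GFP library 3, and BDNF at 26.4 CPM in that same library. SORT1 was at 44.2 CPM in ERRg library 1.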

How the results depend on the processing

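Of the 7 tested genes, 2 higher and 4 lower were also counted in all 8 fits without 1 library, with DESeq2 size factors, the DESeq2 Wald test, limma-voom, both other low-count filters, an adjusted p under 0.01, no mitochondrially encoded genes or ESRRG, and ERRg libraries summed in pairs. With library totals 3 were higher and 2 lower, and BDNF (0.26) and SORCS1 (0.074) turned. With all 3 offsets 1 of the 7 was higher and 5 lower, DUSP1 (0.080) turned, and 4131 of all genes were higher. With the GC offset 4335 of all genes were higher and 48 of the pathway genes lower, and with coding genes alone 5473 were higher, fits in which fewer genes were tested. Against a log2 fold change of 1, edgeR called 0 of the 7 higher (1, NTRK3, at an unadjusted p under 0.05) and 1 lower (NGFR), with 1687 and 2299 of all genes and 2 and 25 of the pathway genes. With the covariate edgeR called 0 of the 7 higher and 0 lower (0 and 1 at an unadjusted p under 0.05), 0 and 0 of the pathway genes (1 and 5) and 6 and 2 of all genes (320 and 762), and SORT1 (0.052), AP2M1 (0.068), EGR1 (0.32) and BDNF-AS (-1.70) turned. The cause was not tested. With the replicate number as a block the 7 again gave 2 higher and 4 lower, and all genes 8183 and 7654. Same-numbered libraries deviated together in replicate 1 alone (correlations 0.18, -0.45, -0.34 and -0.13), so the numbers were not taken as pairs. Depth limits NGFR in ERRg (4 to 18 reads) and NTRK3 in GFP (18 to 24 reads) most.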
